A study of Mus musculus with 8 samples.

Results

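The Gimap genes (GTPases of immunity-associated proteins) form a small gene family that is used mainly by lymphocytes. The 8 members with a symbol in the deposited gene table were Gimap1, Gimap3, Gimap4, Gimap5, Gimap6, Gimap7, Gimap8 and Gimap9. They were taken by symbol from 32285 genes, with no cutoff on a measured value. The family itself was chosen with earlier results of these data known. All 8 passed the filter on low counts in each of the 9 comparisons below.

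The values come from mouse CD8 T cells that were activated and grown beside bone marrow stromal cells (BMSCs) whose mitochondria carried dsRed, a red fluorescent protein. MitoPositive cells had dsRed when they were sorted and MitoNegative cells had none, and the arms share activation and that culture. Each arm was sequenced at once (day 0, called culture here) or put into B6 mice bearing the tumor B16KVP and recovered on day 7 from spleen and tumor, where the arm names refer to the state at transfer. This gives 6 groups: MitoPositive and MitoNegative culture, MitoPositive and MitoNegative spleen, and MitoPositive and MitoNegative tumor, each with 3 hashtagged samples, 1 from each of 3 donor mice. The genotype and age of the donors are not given in the sources used here. The host entries of the deposited sample list differ between MitoPositive and MitoNegative cells of a donor on day 7, and are shared by spleen and tumor of an arm, so an effect of the recipient and one of the arm cannot be told apart.

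UMIs (counted molecules) of 16364 T cells were summed per hashtagged sample, and the sample was the replicate. The samples held 30 to 3421 cells and 323344 to 26516196 UMIs, with the fewest cells in MitoNegative tumor (30, 85 and 112) and 49 cells in MitoPositive spleen of donor 3. The 8 T cell markers, Cd3, Cd8 and T cell receptor constant genes, were detected in all 18 samples, with a summed level of 7813 to 11903 counts scaled to library size (CPM). Pairs of libraries shared 1 to 9 cell barcodes. The labels give 2 maps of the culture hashtags; the one in the deposited sample list was used, and the other was run as an alternative.

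Gimap proteins bind GTP and sit on inner membranes of lymphocytes, and several of them are needed for naive T cells to survive. In rats and mice, loss of Gimap5, a lysosomal membrane protein, shortens the life of T cells and leaves them unable to stay at rest. Gimap6 binds a member of the Atg8 family of autophagy proteins, Gimap3 has been placed on mitochondrial membranes in the mouse, and the proteins of both Gimap3 and Gimap5 have been reported to bind Bcl2 family proteins. Gimap1 is needed for mature lymphocytes to persist, Gimap4 has been tied to the timing of T cell death, and human GIMAP7 forms dimers that hydrolyse GTP. Gimap8 is the longest protein of the family and carries several GTP-binding domains.

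The 8 genes lie together on mouse chromosome 6 (build GRCm38, GENCODE M21 annotation), at chr6:48647234-48770851, a stretch of 124 kb. From the low end their order is Gimap8, Gimap9, Gimap4, Gimap6, Gimap7, Gimap1, Gimap5 and Gimap3, with 6 on the plus strand and Gimap6 and Gimap3 on the minus strand. The coding sequence of Gimap8 is 2064 bases long, and those of the others are 873 to 984 bases. Gimap3 and Gimap5 are close copies: 90.7% of their aligned coding bases were the same, and 190 stretches of 50 bases occurred in transcripts of both, 7.52% of those of Gimap3 and 4.53% of those of Gimap5. In the other 27 pairs of members, 57.9% to 76.5% of aligned coding bases were the same and no stretch of 50 bases was shared. Reads that lie within the shared stretches cannot be placed on Gimap3 or Gimap5 alone, so the values of these genes carry that uncertainty. An antisense gene, Gimap1os, overlaps Gimap1, and the use of strand in counting is not given in the sources used here.

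Promoter sequences (RefSeq, GRCm38.p6, 250 bases before to 50 after the annotated start, 5′ to 3′ on the gene's strand) are shown for the 3 members that were higher in MitoPositive spleen and for Gimap5, the member whose levels ran apart from the rest. Capitals mark matches, on either strand, to GGAAGT (the core bound by Ets factors), TGTGGT (Runx), CTTTGAA (Tcf and Lef factors), TGTTTAC (Foxo) or CCACCC (bound by Klf factors). They lie at chr6:48718371-48718670 (Gimap7, plus strand), chr6:48708195-48708494 (Gimap6, minus strand), chr6:48684328-48684627 (Gimap4, plus strand) and chr6:48745947-48746246 (Gimap5, plus strand).
Gimap7: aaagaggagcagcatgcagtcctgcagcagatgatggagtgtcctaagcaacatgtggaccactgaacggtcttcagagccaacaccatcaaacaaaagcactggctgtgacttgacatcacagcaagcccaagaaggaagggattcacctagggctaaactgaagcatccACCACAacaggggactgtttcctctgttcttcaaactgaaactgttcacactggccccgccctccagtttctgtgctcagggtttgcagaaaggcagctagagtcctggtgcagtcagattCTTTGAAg
Gimap6: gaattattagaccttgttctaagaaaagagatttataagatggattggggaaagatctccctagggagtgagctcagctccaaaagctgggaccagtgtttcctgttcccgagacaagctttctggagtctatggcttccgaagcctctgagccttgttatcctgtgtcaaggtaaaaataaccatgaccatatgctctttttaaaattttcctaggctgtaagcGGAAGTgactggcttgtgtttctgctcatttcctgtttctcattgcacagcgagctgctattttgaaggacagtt
Gimap4: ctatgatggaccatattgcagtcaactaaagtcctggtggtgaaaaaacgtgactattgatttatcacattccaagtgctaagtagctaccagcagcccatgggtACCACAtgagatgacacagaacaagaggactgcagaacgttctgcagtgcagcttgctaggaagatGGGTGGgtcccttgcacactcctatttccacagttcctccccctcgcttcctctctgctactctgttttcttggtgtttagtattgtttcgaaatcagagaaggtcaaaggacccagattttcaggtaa
Gimap5: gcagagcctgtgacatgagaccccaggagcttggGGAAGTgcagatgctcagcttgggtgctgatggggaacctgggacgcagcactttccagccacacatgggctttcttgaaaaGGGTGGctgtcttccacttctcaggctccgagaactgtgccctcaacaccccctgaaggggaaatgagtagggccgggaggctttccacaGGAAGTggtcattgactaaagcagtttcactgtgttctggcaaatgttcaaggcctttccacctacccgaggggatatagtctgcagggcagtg
The RUNX letters TGTGGT occurred in 3 of the 8 member promoters (Gimap1, Gimap4 and Gimap7), against 16.9% of 27025 mouse promoters, and the CTTTGAA letters in Gimap7, against 5.27%. GGAAGT occurred in 4 of 8 (Gimap1, Gimap5, Gimap6 and Gimap9), against 24.1%, and CCACCC in 4 of 8 (Gimap3, Gimap4, Gimap5 and Gimap9), against 30.9%. TGTTTAC occurred in Gimap3, against 3.55% of promoters, and the Gimap8 promoter held none of these letters. In Gimap7, CTTTGAA lies 42 bases past the start. No marked run overlapped another, and these matches describe letters and are not measured binding sites.

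In culture, the question was whether T cells with stromal mitochondria already differed in Gimap RNA. No member passed the test without a donor term, and Gimap6 passed with the donor as a block. The 8 members together gave 2405, 2464 and 2543 CPM (scaled by TMM, as are all levels here) in MitoPositive culture of donors 1, 2 and 3, against 2468, 2648 and 2591 in MitoNegative culture. The ranges of the arms overlapped with TMM scaling. Without it the sums were 2646, 2671 and 2650.2 in MitoPositive culture, against 2790.5, 2921 and 2868 in MitoNegative culture, and did not overlap. Gimap6 had 523, 544 and 552 CPM in MitoPositive culture, against 587, 626 and 601 in MitoNegative culture, with every MitoPositive sample the lower. Gimap1 had 292, 295 and 326 CPM in MitoPositive culture, against 277, 285 and 288 in MitoNegative culture, with every MitoPositive sample the higher. Of all genes, 11.1% did not overlap in the direction of Gimap6 and 15.3% in that of Gimap1. Gimap7 had 233, 251 and 254 CPM in MitoPositive culture, against 227, 267 and 251 in MitoNegative culture, and its arms overlapped. Of 11436 genes tested in culture, 9.26% were called at an adjusted p (edgeR quasi-likelihood, Benjamini-Hochberg) under 0.05, and 0 of the 8 members were. Their log2 differences, MitoPositive over MitoNegative, were -0.17 to 0.09, with a median of -0.04 against -0.0035 over all genes. With DESeq2 the count was also 0 of 8, and 1 member, Gimap6, had an unadjusted p under 0.05 in edgeR. Under the other hashtag map edgeR called 0 genes in culture, with 393 at an unadjusted p under 0.05. With the donor as a block, Gimap6 was lower in MitoPositive culture by a log2 difference of -0.17 ± 0.05 (SE, edgeR adjusted p = 0.0159). That fit called 2295 genes in all, against 1059 without the block.

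**Figure D1:**
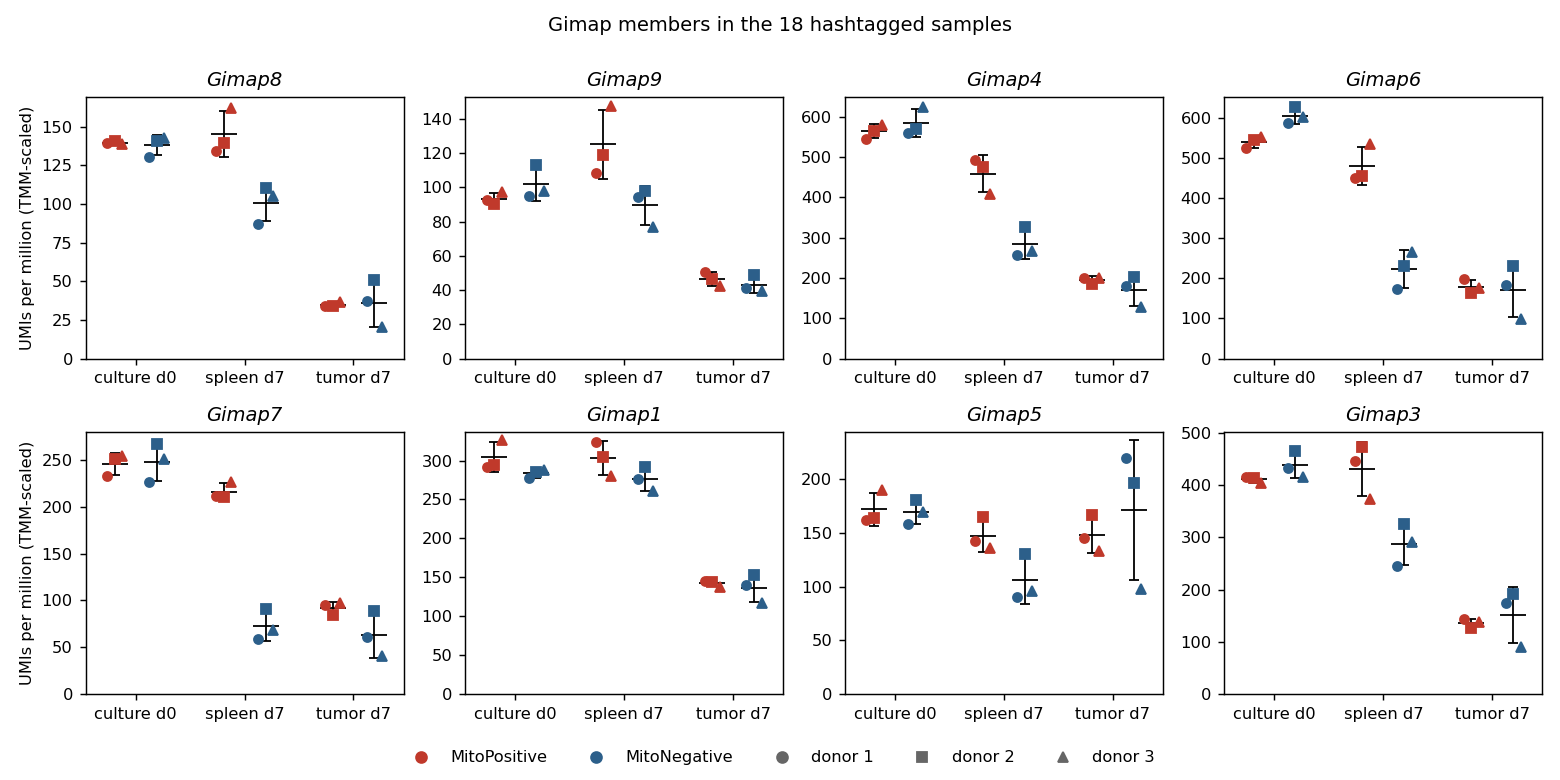
Level of each Gimap member (CPM, TMM-scaled, linear axes from 0) in the 18 hashtagged samples, with MitoPositive in red left of MitoNegative in blue, one symbol per donor, and the mean ± SD over 3 donors as black bars. Gimap7 sits at 211 to 227 in MitoPositive spleen and at 58.6 to 90.4 in MitoNegative spleen, while Gimap5 sits at 133 to 167 in MitoPositive tumor and at 136 to 164 in MitoPositive spleen.

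In the spleen on day 7, Gimap RNA was higher in MitoPositive cells. The 8 members together gave 2310.2, 2342 and 2269 CPM in MitoPositive spleen of donors 1, 2 and 3, against 1282, 1603 and 1431 in MitoNegative spleen. Every MitoPositive sample lay above every MitoNegative one, and the ratio of the arms was 1.8, 1.46 and 1.59 in the 3 donors. Gimap7, Gimap6 and Gimap4, which lie side by side on the chromosome, passed the test, 3 of 8 members against 1.59% of 11905 genes called higher and 4.55% called in either direction.

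Gimap7 (ENSMUSG00000043931) differed the most of the 8 members in the spleen. It had 211, 211 and 227 CPM in MitoPositive spleen, against 58.6, 90.4 and 68.3 in MitoNegative spleen. The lowest MitoPositive sample was thus above the highest MitoNegative one, and the value of donor 3 in MitoPositive spleen rests on 77 UMIs. The log2 fold change was 1.58 ± 0.19 (SE, n = 3 donors per arm, edgeR adjusted p = 0.000869).

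Gimap6 (ENSMUSG00000047867), the member that binds an Atg8 protein, had 451, 454 and 534 CPM in MitoPositive spleen, against 173, 230.0 and 266 in MitoNegative spleen. The arms did not overlap, and the log2 fold change was 1.10 ± 0.23 (SE, edgeR adjusted p = 0.0158). Gimap4 (ENSMUSG00000054435) had 493, 476 and 407 CPM in MitoPositive spleen, against 257, 327 and 267 in MitoNegative spleen. Again all MitoPositive samples were the higher ones, with a log2 fold change of 0.71 ± 0.13 (SE, edgeR adjusted p = 0.0105).

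The other 5 members had positive log2 differences of 0.14 to 0.59 that did not pass the test (edgeR adjusted p = 0.0865 to 0.542). Gimap3 had 446, 474 and 375 CPM in MitoPositive spleen, against 245, 325 and 291 in MitoNegative spleen. Gimap1, at the low end of that range, had 324, 304 and 280.3 in MitoPositive spleen, against 277, 291 and 260.3 in MitoNegative spleen, and its arms overlapped. Gimap8 had 134, 139 and 162 CPM in MitoPositive spleen, against 87.1, 110.3 and 105 in MitoNegative spleen. Gimap9 had 109, 119 and 148 CPM in MitoPositive spleen, against 94.4, 97.8 and 76.6 in MitoNegative spleen. Gimap5 had 142, 164 and 136 CPM in MitoPositive spleen, against 90.6, 131 and 96.2 in MitoNegative spleen. For the 7 members other than Gimap1 every MitoPositive sample exceeded every MitoNegative one, which held for 8.02% of all genes. The median log2 difference over the 8 members was 0.54, against -9.54e-05 over all genes tested.

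Without donor 1, 0 of 8 members and 18 genes in all were called, and Gimap7 had a log2 fold change of 1.42 (edgeR adjusted p = 0.0702). Without donor 2, 1 member and 102 genes in all were called, and without donor 3, 6 members and 1065 genes, against 542 genes with all donors. Other measures moved with the arms, and their part in the result was not tested beyond the counts given here. Trbv14, a T cell receptor beta chain segment, made up 66.3% to 79.0% of Trbv UMIs in MitoPositive spleen and 85.3% to 96.8% in MitoNegative spleen. Among cells with Trbv14 alone, 4 members and 627 genes were called. Clusters led by cell cycle genes held 2.36% to 6.12% of MitoPositive and 11.8% to 26.9% of MitoNegative spleen cells. Without them 3 members and 136 genes were called. Myeloid markers summed to 160.4 to 918 CPM in MitoPositive spleen, with the highest value in donor 3, and to 139 to 257 in MitoNegative spleen, with none of 10 markers at 0 in either arm. NK cell markers summed to 126, 133 and 266 CPM in MitoPositive spleen, against 54.0, 73.9 and 115 in MitoNegative spleen, with no overlap and at most 1 of 5 markers at 0 in a sample. Fcer1g is in both the NK and the myeloid list, so these sums are not separate measures. S phase genes summed to 448 to 605 CPM in MitoPositive and 1019 to 2187 in MitoNegative spleen. Without clusters led by other cell types 4 members and 842 genes were called.

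**Figure D2:**
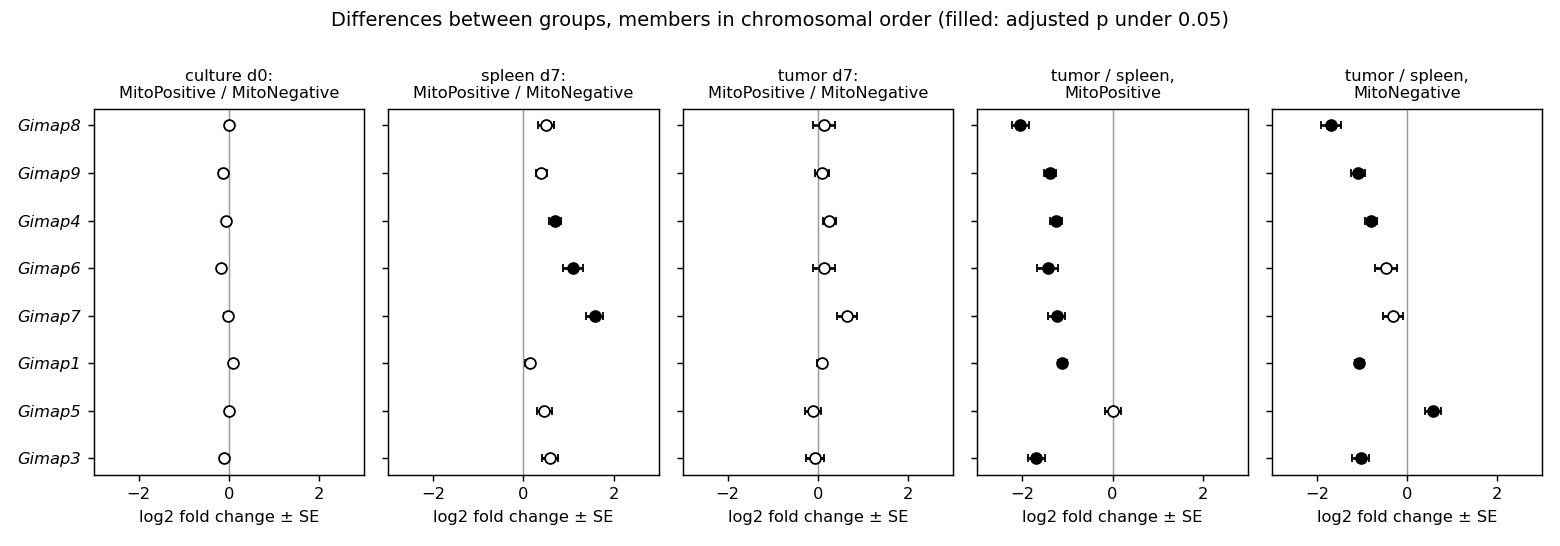
Log2 fold change ± SE (horizontal) of each member (rows, in chromosomal order) in 5 comparisons, from edgeR quasi-likelihood fits on 3 donors per group; filled circles had an adjusted p under 0.05. Gimap7, Gimap6 and Gimap4 are filled in the spleen comparison of the arms, none is filled in culture or tumor, and Gimap5 stands right of the other members in both tumor over spleen columns.

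**Figure D3:**
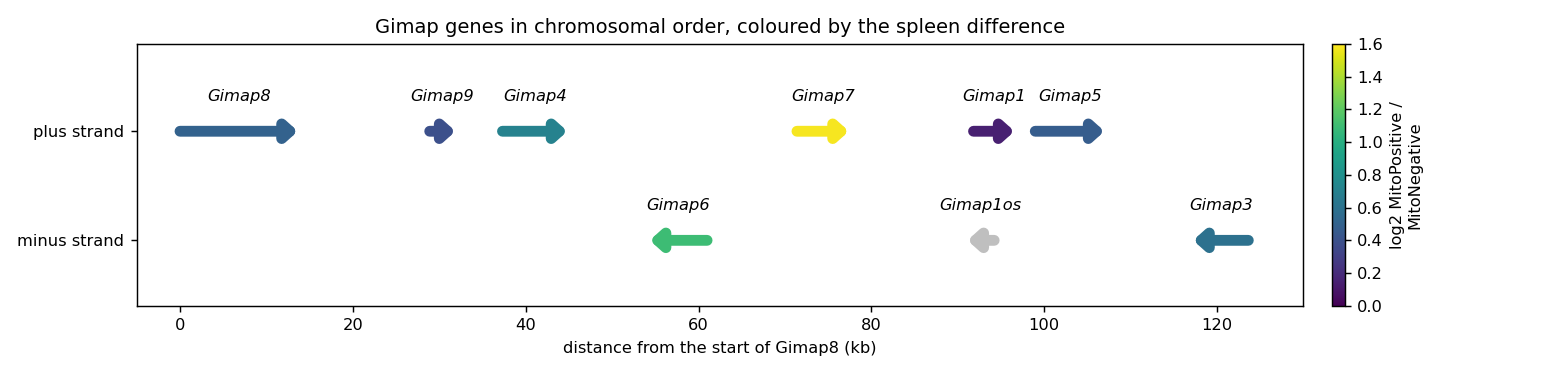
Gimap genes drawn to scale by distance in kb from the start of Gimap8 (arrows point with transcription, Gimap1os in grey), coloured by the log2 fold change of MitoPositive over MitoNegative in the spleen. Gimap7 (1.58), Gimap6 (1.10) and Gimap4 (0.71) are neighbours, and Gimap1 (0.14), next to Gimap7 on the plus strand, has the lowest value.

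For Gimap7 and Gimap6 detection per cell gave the arms in the same order in the spleen. To compare equal depths, cells were thinned to 3000 UMIs, which left out shallower ones and kept 3074 of 3486 MitoPositive and 4735 of 5206 MitoNegative spleen cells. Gimap7 was then detected in 40.9% ± 3.07 of cells in MitoPositive spleen and in 16.7% ± 3.02 in MitoNegative spleen (SD, n = 3). Without thinning the shares were 57.8% in MitoPositive and 29.4% in MitoNegative spleen. Gimap6 was detected in 70.1% ± 1.27 of MitoPositive and 43.5% ± 7.65 of MitoNegative spleen cells. Gimap1 was level after thinning, at 56.0% ± 3.48 of MitoPositive and 55.6% ± 2.62 of MitoNegative spleen cells, and without thinning it ran the other way, at 71.5% of MitoPositive and 79.2% of MitoNegative cells. At least 1 of the 8 members was found in 98.9% ± 0.82 of MitoPositive and 95.5% ± 1.30 of MitoNegative spleen cells, and the mean number of members per cell was 3.97 ± 0.152 in MitoPositive and 2.96 ± 0.249 in MitoNegative spleen. As a rough gauge of free RNA, a cluster of 14 cells led by the pigment genes Dct and Tyrp1 had a summed Gimap level of 27.6 CPM. It held 22 Gimap UMIs, with a Gimap UMI in 50% of its cells and a Cd3 UMI in 42.9%, at a median of 45235 UMIs per cell. At that depth a given number of stray UMIs makes a lower CPM than in the shallower spleen cells. The other cluster left out as not T cells, 28 cells led by S100a9 and S100a8 with a Cd3 UMI in 25% of them, had 629.7 CPM, with a Gimap UMI in 17.9% of its cells at a median of 4005.5 UMIs. The median was 5288 to 6276 UMIs per cell in MitoPositive and 5791 to 7307 in MitoNegative spleen samples.

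**Figure D4:**
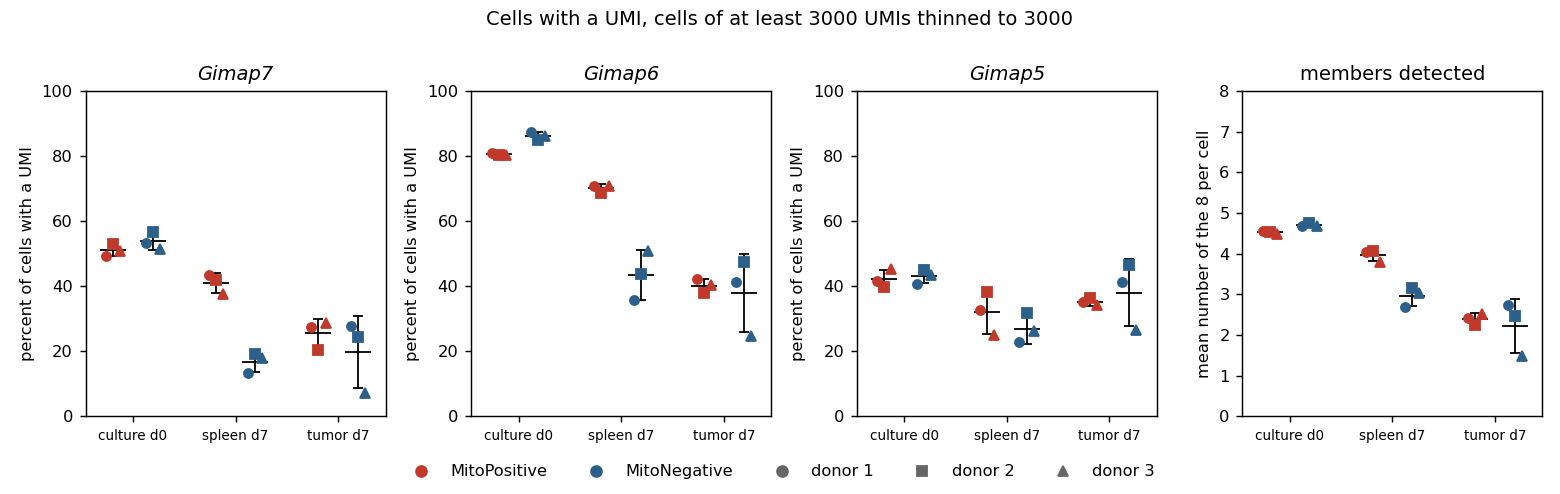
Percent of cells with a UMI of Gimap7, Gimap6 and Gimap5, and mean number of the 8 members detected per cell, after cells with at least 3000 UMIs were thinned to that number; points are donors, MitoPositive left of MitoNegative, and bars are mean ± SD. Gimap7 was found in 37.5% to 43.4% of MitoPositive and 13.3% to 19.0% of MitoNegative spleen cells.

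Cells were also grouped into clusters without using the 8 members, and Gimap RNA differed widely among them. On day 7 the summed level was 2479 CPM in cluster 1, with Bcl2, Satb1 and Lef1 among its leading genes, and 2383 in cluster 4, led by Gzma and Cx3cr1. It was 1478 in cluster 0, led by Cd7 and Id3, 1001 in cluster 3, led by histone genes of dividing cells, and 693 in cluster 2, led by Nrgn and Gzmc. MitoPositive spleen cells were mostly in clusters 1 and 4, and MitoNegative ones mostly in cluster 0. In culture the summed level was 2114 in the cluster led by cell cycle genes and 2512 to 3030 in the other 5.

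Within a cluster the ranges of the arms stood apart in some clusters and overlapped in others. In cluster 0 the summed level was 1921 and 1904 CPM in MitoPositive spleen of donors 1 and 2, against 1302, 1498 and 1414 in MitoNegative spleen of donors 1, 2 and 3; MitoPositive donor 3 had 6 cells there and is left out. Gimap7 in that cluster had 124 and 141 CPM in the same MitoPositive samples, against 50.8, 63.2 and 53.2 in the MitoNegative ones. In cluster 3 the sum was 1271 and 1458 in MitoPositive spleen of donors 1 and 2, on 18 and 59 cells, against 902 to 1079 in MitoNegative spleen. In cluster 1 it was 2685, 2426 and 3182 in MitoPositive spleen of donors 1, 2 and 3, against 2308, 2377 and 2561 in MitoNegative spleen. In cluster 4 it was 2312, 2505 and 2468 in MitoPositive spleen, against 2017, 2319 and 2422 in MitoNegative spleen. The ranges of the arms overlapped in clusters 1 and 4, but within each donor the MitoPositive sample was the higher. MitoPositive donor 3 had 14 cells in cluster 1 and 16 in cluster 4. These values within clusters were not tested.

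**Figure D5:**
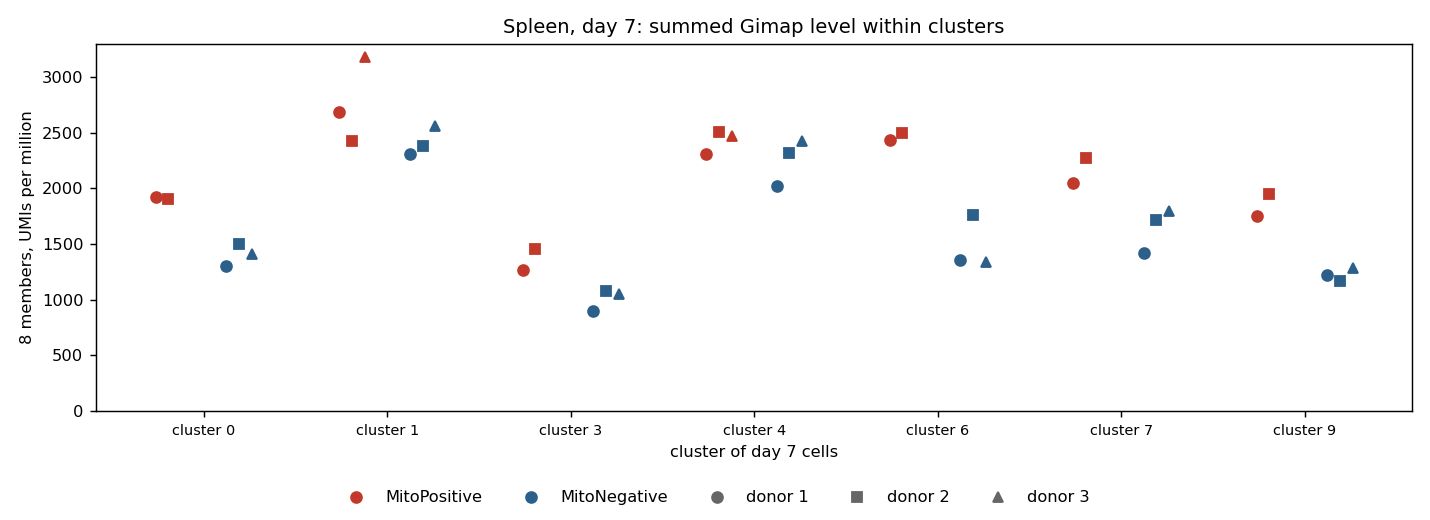
Summed level of the 8 Gimap members (CPM, axis from 0) in spleen cells of day 7, by cluster, with MitoPositive in red left of MitoNegative in blue and one symbol per donor; samples with under 10 cells in a cluster are left out, and clusters 6, 7 and 9 are led by Oprm1, C1qa and Isg15. In cluster 0 the MitoPositive samples are at 1904 and 1921 and the MitoNegative ones at 1302 to 1498. In cluster 4 the ranges of the arms overlap, though MitoPositive is the higher in each donor.

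Set against culture, the spleen values differed by arm. In MitoNegative cells 6 of 8 members were lower in spleen than in culture, against 29% of 12754 genes called lower. Gimap7 had a log2 fold change of -1.8 ± 0.16 (SE, edgeR adjusted p = 2.06e-08), with 58.6 to 90.4 CPM in MitoNegative spleen and 227 to 267 in MitoNegative culture. Gimap6 fell by 1.45 ± 0.19, Gimap4 by 1.05 ± 0.11, Gimap5 by 0.70 ± 0.14, Gimap3 by 0.62 ± 0.15 and Gimap8 by 0.46 ± 0.13 on the log2 scale (edgeR adjusted p = 0.00546 or less).

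In MitoPositive cells the values stayed nearer to culture. Gimap7 had 211 to 227 CPM in MitoPositive spleen and 233 to 254 in MitoPositive culture, a log2 difference of -0.22 that did not pass (edgeR adjusted p = 0.275). Of the 8 members, 1 was called higher, Gimap9 at 0.31 ± 0.11 (SE, edgeR adjusted p = 0.03), against 23.8% of genes, and 1 lower, Gimap4 at -0.29 ± 0.11 (SE, edgeR adjusted p = 0.0414), against 22.5% of genes. Without a donor block Gimap4 was not called (adjusted p = 0.0914 in edgeR). Without samples under 50 cells neither was called, and among cells with Trbv14 alone 0 members were higher and 3 lower (Gimap4, Gimap5 and Gimap7). Day and library cannot be told apart in these comparisons.

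The difference between the arm effects itself, spleen minus culture, was tested and passed for 5 of 8 members, all higher, against 3.58% of genes. Gimap7 had a log2 difference of effects of 1.58 ± 0.22 (SE, edgeR adjusted p = 0.00014) and Gimap6 of 1.25 ± 0.27 (adjusted p = 0.00462 in edgeR). Gimap4 had 0.75 ± 0.16 (SE, edgeR adjusted p = 0.00458), Gimap3 had 0.68 ± 0.21 (adjusted p = 0.0461) and Gimap9 had 0.49 ± 0.15 (adjusted p = 0.042). This comparison shares its spleen and culture samples with those above, and its fit had no donor term for the culture samples. Under the other hashtag map of the culture samples 1 member, Gimap7, was called, at 1.69 (edgeR adjusted p = 0.00471), and without a donor block 3 members were called.

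In the tumor no member separated the arms. The 8 members together gave 1011, 950.3 and 959 CPM in MitoPositive tumor, against 1035, 1164 and 631 in MitoNegative tumor, where each of the 3 samples held 30 to 112 cells. The arms overlapped in the sum and in each of the 8 members, while 10.1% of genes had every MitoPositive tumor sample above every MitoNegative one. Of 11905 genes, 0.193% were called, and 0 of 8 members were, with DESeq2 as well. Gimap7 had the largest log2 difference, 0.64 ± 0.22 (SE, edgeR adjusted p = 0.287), and was the 1 member with an unadjusted p under 0.05. It had 94.6, 84.6 and 96.9 CPM in MitoPositive tumor, against 61.0, 88.9 and 40.1 in MitoNegative tumor, and with no filter on low counts it was called (edgeR adjusted p = 0.00527).

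Whether the arm effect differed between tumor and spleen was tested too, and 0 of 8 members passed, against 0.0504% of genes, and 0 of 8 with DESeq2. All 8 log2 differences of effects, tumor minus spleen, were negative, from -0.97 to -0.06, and 5 had an unadjusted p under 0.05. Gimap7 had -0.94 ± 0.29 (SE, edgeR adjusted p = 0.197). Without donor 3, whose MitoPositive spleen sample held 49 cells, 6 members and 134 genes in all were called lower, with Gimap6 at -1.47 (edgeR adjusted p = 0.00459).

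Between tissues, most members were lower in the tumor than in the spleen relative to all UMIs of a sample. This held for all but Gimap5 in MitoPositive cells, and for all but Gimap5, Gimap6 and Gimap7 in MitoNegative cells. In MitoPositive cells 7 of 8 members were lower in the tumor, against 28.4% of genes called lower. Gimap8 had the largest change, with 33.7, 34.1 and 36.8 CPM in MitoPositive tumor, against 134, 139 and 162 in MitoPositive spleen, a log2 fold change of -2.05 ± 0.19 (SE, edgeR adjusted p = 1.57e-06). Gimap3 fell by 1.69 ± 0.19, Gimap6 by 1.44 ± 0.23, Gimap9 by 1.38 ± 0.13, Gimap4 by 1.26 ± 0.14, Gimap7 by 1.24 ± 0.19 and Gimap1 by 1.12 ± 0.10 on the log2 scale (edgeR adjusted p = 0.000151 or less).

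Depth and other markers moved with the tissue in MitoPositive cells. The median was 10272.5 to 15794 UMIs per cell in MitoPositive tumor and 5288 to 6276 in MitoPositive spleen samples, and S phase genes summed to 2212 to 2389 CPM in MitoPositive tumor and 448 to 605 in MitoPositive spleen. Myeloid markers summed to 53.4 to 96.6 CPM in MitoPositive tumor and 160.4 to 918 in MitoPositive spleen, and B cell markers to 2.96 to 4.30 in MitoPositive tumor and 17.7 to 47.4 in MitoPositive spleen. With cells thinned to 3000 UMIs the same count of 7 members was called lower, with a median log2 difference over the 8 members of -0.92 in place of -1.32. Without cycling clusters, and without clusters led by other cell types, 7 members were called lower as well, with medians of -1.33 and -1.37. CPM and thinning both compare shares of UMIs, not molecules per cell. MitoPositive tumor gave 2307, 13273 and 10360 UMIs of the 8 members from 172, 993 and 670 cells of donors 1, 2 and 3. MitoPositive spleen gave 16334, 28475 and 769 from 1146, 2291 and 49 cells. Per cell these counts were near level between the tissues, which was not tested.

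In MitoNegative cells 5 of 8 members were lower in the tumor, against 23.1% of genes. Gimap8 fell by 1.69 ± 0.23, Gimap9 by 1.08 ± 0.16, Gimap1 by 1.06 ± 0.11, Gimap3 by 1.03 ± 0.19 and Gimap4 by 0.80 ± 0.14 on the log2 scale (edgeR adjusted p = 0.000841 or less). Without donor 3, 5 members were still called lower, but Gimap3 had -0.62 and Gimap8 -1.10, and the median over the 8 members was -0.60 in place of -0.92. Gimap6 and Gimap7 had differences of -0.47 and -0.30 that did not pass, and without donor 3 these were 0.08 and 0.09. Gimap7 had 61.0, 88.9 and 40.1 CPM in MitoNegative tumor, against 58.6, 90.4 and 68.3 in MitoNegative spleen, with overlapping values. The 8 members gave 475, 1048 and 1477 UMIs from 30, 85 and 112 MitoNegative tumor cells. MitoNegative spleen gave 32778, 12340 and 6409 from 3421, 1235 and 550 cells. Per cell these counts were higher in the tumor in each donor, which was not tested. The median was 10067 to 21063.5 UMIs per cell in MitoNegative tumor and 5791 to 7307 in MitoNegative spleen samples.

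Gimap5 (ENSMUSG00000043505) did not follow most other members from spleen to tumor, though the difference between genes was not tested. In MitoNegative cells Gimap6 and Gimap7 were not called lower in the tumor either. By arm in the spleen, and from culture to spleen in MitoNegative cells, Gimap5 changed in the same direction as the other members. It had 145, 167 and 133 CPM in MitoPositive tumor, against 142, 164 and 136 in MitoPositive spleen, a log2 difference of 0.01 ± 0.18 (SE, edgeR adjusted p = 0.96). In MitoNegative cells it had 220.2, 197 and 97.8 CPM in the tumor, against 90.6, 131 and 96.2 in the spleen. Donors 1 and 2 were higher in the tumor and donor 3 was level with its spleen sample. The log2 fold change was 0.58 ± 0.18 (SE, edgeR adjusted p = 0.0187), the 1 member called higher against 20.2% of genes, on 101, 177 and 229 UMIs in the tumor. Without donor 1 the value was 0.31 and without donor 2 it was 0.66, and neither was called (edgeR adjusted p = 0.203 and 0.0787); without samples under 50 cells it was 0.34, with an edgeR adjusted p of 0.127.

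The share of the family's UMIs that Gimap5 took also moves when the other members change. It was 15.3% in MitoPositive and 17.9% in MitoNegative tumor, and 6.39% in MitoPositive and 7.31% in MitoNegative spleen. Gimap7 took 9.39% in MitoPositive and 5.00% in MitoNegative spleen, and 9.96% in MitoPositive and 9.66% in MitoNegative culture. Among day 7 clusters Gimap5 was highest in cluster 5, led by Ifng and Ccl4, at 223 CPM, and had 112 in cluster 2, where Gimap8 had 26.7.

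Over the 18 samples the log2 levels of the 7 members other than Gimap5 were related to each other, with Pearson correlations of 0.72 to 0.98 and a median of 0.92 over 21 pairs. Gimap5 had -0.01 to 0.49 with those 7. These correlations describe samples that fall into 6 groups and share libraries, and they carry no test. Gimap1os, the antisense gene over Gimap1, averaged 13.8 ± 2.9 CPM in MitoPositive tumor, against 37.7 ± 7.15 in MitoPositive spleen (SD, n = 3).

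The genes whose log2 level was most like that of the summed family over the 18 samples, among 12746 genes, were Ppp3cc, a catalytic subunit of calcineurin, Dennd2d, Pacs1, Txnip, an inhibitor of thioredoxin and of glucose uptake, and Foxn3, with Pearson correlations of 0.971, 0.971, 0.967, 0.966 and 0.966. Among the least like were Paics, an enzyme of purine synthesis, and Ywhae, at -0.975 and -0.973. These values include the differences between the groups. With group means removed, the correlations were 0.794 for Ppp3cc, 0.683 for Dennd2d, 0.799 for Pacs1, 0.912 for Txnip and 0.805 for Foxn3. They were -0.782 for Paics and -0.769 for Ywhae, and none of these correlations carries a test. Txnip averaged 323 ± 18.9 CPM in MitoPositive spleen and 240.0 ± 51.1 in MitoNegative spleen, and 111 ± 2.64 in MitoPositive tumor and 93.8 ± 26.2 in MitoNegative tumor (SD, n = 3). Paics averaged 57.1 ± 2.84 CPM in MitoPositive and 74.7 ± 14.5 in MitoNegative spleen, and 99.8 ± 1.2 in MitoPositive and 104 ± 22.8 in MitoNegative tumor (SD, n = 3).

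Genes of the processes in which Gimap proteins have been placed were read as lists. Of 20 quiescence genes, 3 were higher in MitoPositive spleen and 0 lower, against 1.59% of genes called higher and 2.97% lower. The median log2 difference of the list was 0.34, against -0.000107 over all genes with a symbol. The 3 higher genes were Satb1, a chromatin organiser of T cells, at 1.28 ± 0.25 (SE, edgeR adjusted p = 0.0116), Bach2, a repressor of effector genes, at 1.08 ± 0.25 (edgeR adjusted p = 0.0289), and Foxp1, a transcription factor of naive T cell quiescence, at 0.83 ± 0.21 (edgeR adjusted p = 0.0395). In culture the same list had 1 member higher, Il7r, the interleukin 7 receptor, at 0.31 ± 0.09 (SE, edgeR adjusted p = 0.0483), and 8 lower, with a median of -0.30, against 6.03% of genes called higher and 3.23% lower. Among those lower in MitoPositive culture were Klf3 at -1.89 ± 0.23, Klf2, a transcription factor of resting T cells, at -1.72 ± 0.28, and S1pr1, the receptor for exit from lymphoid organs, at -1.02 ± 0.20 (edgeR adjusted p = 0.00605 or less). All of these culture calls were lost under the other hashtag map, where no gene was called. Gimap members, by contrast, had differences within -0.17 to 0.09 in that comparison, which had no donor term.

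Of 12 Bcl2 family genes, 1 was higher and 1 lower in MitoPositive spleen, against 1.59% of genes called higher and 2.97% lower. Bcl2, which blocks the mitochondrial path of cell death, averaged 575 CPM in MitoPositive spleen and 258 in MitoNegative spleen, a log2 fold change of 1.18 ± 0.20 (SE, edgeR adjusted p = 0.00684). Bcl2a1d averaged 19.3 in MitoPositive and 30.8 in MitoNegative spleen, with -0.73 ± 0.15 (SE, edgeR adjusted p = 0.0148). In culture Bcl2l11, which promotes cell death, was the 1 member called, at -0.53 ± 0.09 (SE, edgeR adjusted p = 0.00386). That count of 1 of 12 is near the share of all genes called in culture, 9.26%. None of 10 Atg8 and autophagy genes and none of 5 Gsk3 pathway genes was called in spleen or culture, with median log2 differences of 0.06 and 0.04 in the spleen. Of all genes, 4.55% were called in spleen and 9.26% in culture, so counts of 0 in lists this short say little.

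Genes around the Gimap cluster were checked for the same change. Of 13 neighbours, including genes between the members, 6 could be tested on day 7. In the spleen comparison of the arms 0 of these 6 were called, against 4.55% of genes, with a median log2 difference of 0.04. Gimap1os, inside the cluster, had 0.24 ± 0.18 (SE, edgeR adjusted p = 0.557). Tumor against spleen, 4 of the 6 were lower in MitoPositive cells, against 28.4% of genes, and 2 of the 6 in MitoNegative cells, against 23.1%, a share near that of all genes. In MitoPositive cells these were Tmem176a at -2.13, Gimap1os at -1.59, Tmem176b at -1.24 and 4833403J16Rik at -0.72 on the log2 scale (edgeR adjusted p = 0.0485 or less), of which Tmem176a, Tmem176b and 4833403J16Rik had mean levels under 10 CPM in both tissues.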

How the data were processed

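Per the file headers and the submitters' processing notes, the deposited matrices hold UMI counts, not normalized, from Cell Ranger 7.0.0 (mm10, GRCm38); Seurat 4.0.5 is also named there. Chromium 3′ v3.1 libraries were used, per the labels' protocols. The authors' deposited sample list assigns hashtags to arm, tissue and donor and gives counts of sorted cells, which were not used for any result.

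Of 18092 barcodes, 17458 passed a floor of 500 genes and a ceiling of 15% UMIs from mitochondrial genes. Hashtags were assigned by the leading tag, with a floor of 10 UMIs and a 3-fold lead over the next; barcodes with no such hashtag, doublets of 2 samples included, were left out, and doublets within a sample were not removed. Cells of each day were clustered by Leiden on 30 components of 2000 variable genes, the members left out (resolution 0.5, scanpy 1.11.5 with leidenalg 0.10.2). The 2 clusters with a Cd3 UMI in under 50% of cells were dropped.

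Summed UMIs per sample went through filterByExpr and TMM into edgeR 4.0.16 (quasi-likelihood, R 4.3.3), with p adjusted over all genes tested at 0.05. The 6 culture samples were fitted without a donor term, the 12 day 7 samples in 1 fit with donor (library) as a block, and all 18 samples with that block at day 7. The donor mouse, per the deposited list, pairs the samples. Deviations from group means correlated at 0.067 to 0.24 for the same donor in culture and at -0.055 to 0.28 on day 7. For different donors the range was -0.22 to 0.031 in culture and -0.20 to 0.096 on day 7. Each group mean rests on few samples, so the values for different donors are tied to those for the same donor. Some of the fits were also run on simulated counts with known changes, the same spread for all genes and no donor effect. Those settings are simpler than these samples, and no result here rests on that run. Alternatives were HTODemux (Seurat 5.3.0), DESeq2 1.42.0 and its size factors, no count filter, the donor block, leaving out donors, small samples, clusters or cells without Trbv14 alone, thinning, and the other hashtag map.

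The members, gene lists and tests were chosen with earlier results of these data known. The rule for named genes was: fold, SE and adjusted p for a member where it passed 0.05 and otherwise ranges and counts; the 5 highest and 3 lowest correlations (prior count 2) with the summed members; and list genes that passed in spleen or culture, at most 6 a list by size. Some genes that this rule names are not reported here. Outside that rule, chosen after their values were seen, are Il7r, the neighbours named for the tumor, and the values of members that did not pass (Gimap7 in tumor and in MitoPositive cells by day, Gimap5 and Gimap6 between tissues). Depth limits small samples: a count of 77 UMIs carries counting error as well as the spread between donors.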

Additional observations from a re-analysis of the deposited data

Results flagged for a closer look

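The MitoPositive over MitoNegative difference was not the same in spleen on day 7 as in culture for 5 members, by an interaction test in the edgeR fit of 18 samples. The log2 difference of effects, spleen minus culture, was 1.58 for Gimap7, 1.25 for Gimap6, 0.75 for Gimap4, 0.68 for Gimap3 and 0.49 for Gimap9, with edgeR adjusted p values of 0.00014, 0.00462, 0.00458, 0.0461 and 0.042. Gimap7 was called in 14 of 14 alternatives, Gimap6 and Gimap4 in 13 each, Gimap3 in 8 and Gimap9 in 5, and under the other hashtag map of the culture samples Gimap7 alone was. In each of the 5 members all 3 donors had a higher MitoPositive than MitoNegative value in the spleen. Day and library cannot be told apart, and the arms of a donor have different host entries. The fit had no donor term for the culture samples, and no alternative of this comparison added one.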

How the results depend on the processing

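No called member changed direction under any alternative run: of 393 recomputed values of 29 called member results, 354 stayed past the threshold and 39 did not. With the donor as a replicate block in culture, 1 member was called against 0. In the spleen 3 members were called, 6 with no count filter, 5 with thinned cells, 6 with spleen samples alone, and 0 to 6 when 1 donor was left out. Both HTODemux and leaving out samples under 50 cells gave 2. HTODemux called 88 genes in all in that comparison, against 542. It assigned 527 cells to MitoNegative spleen of donor 1, against 3421, and 901 to MitoPositive spleen of donor 2, against 2291. In the tumor no count filter gave 1 against 0. For the difference between tissues no count filter gave 2 against 0, and leaving out 1 donor gave 0 to 6. For the difference between days 5 members were called, 3 each with HTODemux, no replicate block and no cycling clusters, 1 with the other hashtag map, and 3 to 5 with 1 donor left out. MitoPositive spleen over culture gave 2, and 1 each with HTODemux, no count filter, no replicate block, thinned cells, the other hashtag map and no clusters led by other cell types, 0 without samples under 50 cells, and 1 to 2 with 1 donor left out. Among cells with Trbv14 alone that comparison gave 0 members higher and 3 lower. The other counts, summed over both directions, stayed within 1.5 times, and the causes were not tested. Without TMM the summed level was 2656 in MitoPositive and 2859.7 in MitoNegative culture and 875 in MitoPositive tumor. Members detected per cell, unthinned, were 5.53 in MitoPositive and 5.36 in MitoNegative culture, 5.34 in MitoPositive and 4.59 in MitoNegative spleen, and 5.15 in MitoPositive and 4.95 in MitoNegative tumor. Thinned to 2000 UMIs they were 3.47 in MitoPositive and 3.56 in MitoNegative culture, 3.18 in MitoPositive and 2.22 in MitoNegative spleen, and 1.85 in MitoPositive tumor. Gimap7 was detected in 57.8% of MitoPositive and 29.4% of MitoNegative spleen cells unthinned, and in 32.3% of MitoPositive and 12.1% of MitoNegative spleen cells at 2000 UMIs. The clusters taken to be led by other cell types were left out as an alternative chosen after seeing the data. MitoNegative tumor, with 30 to 112 cells a sample, and MitoPositive spleen of donor 3, with 49, limit what could be called.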
